A study of Homo sapiens with 44 samples.

Results

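The 10 genes described here encode the TGF-β ligands (TGFB1, TGFB2 and TGFB3), 2 of the family of latent TGF-β binding proteins (LTBP1 and LTBP2), a SMAD transducer (SMAD3) and 4 feedback regulators of the pathway (SMAD7, SKIL, PMEPA1 and BAMBI). They were found by their symbols among the 40663 gene symbols of the count table, and 9 of the 10 were among the 9513 genes with enough counts to be tested. TGFB1 was not, with at most 11 counts in any library.

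TGF-β ligands are secreted in a latent form, bound to their own propeptide and, through it, to latent TGF-β binding proteins that tether the complex to the extracellular matrix. Integrins and thrombospondin release the ligand, which signals through a pair of receptor kinases to SMAD2 and SMAD3, and these enter the nucleus with SMAD4. The pathway induces several of its own inhibitors, and in intestinal fibroblasts it is best known for matrix deposition and the contractile state.

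RNA was sequenced from Ccd-18Co, a fibroblast line from normal human colon, used up to passage 20 in a 48-well format. Once attached, the cells were deprived of serum for 72 h before being kept unstimulated or given 1 of 10 human cytokines for 24 h, which gave 11 groups of 4 libraries. TGF-β1, TNF, IL-17A, OSM, IL-6, IL-13, IL-22, IFNα and IFNγ were used at 10 ng/ml (IL-13 by the sample labels), and IL-1β at 0.1 ng/ml by the labels and methods, although a legend of the study gives 0.01 ng/ml. All groups share the line, the serum starvation and the time, and the labels do not say whether the 4 replicates were separate cultures, so p-values measure the spread between these libraries, which may be technical. The cells are 1 line, and a change in its RNA says nothing of active ligand, which was not measured here.

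Total counts were between 742173 and 2213424 per library (median 1480883), and a count of 3, treated here as the limit of measurement, corresponded to 1.39 to 3.85 CPM (counts scaled to the normalized library size). Libraries of unstimulated cells held 1365019 to 1725354 counts and those of TGF-β1-stimulated cells 825001 to 1470192. All 8 fibroblast markers, among them DCN, LUM and COL1A1, were above that limit, with summed levels of 16587 to 52127 CPM. Summed epithelial markers reached at most 26.6 CPM, endothelial 2.65 CPM, glial 2.81 CPM and immune 73.8 CPM, with CD3E, CD79A and SOX10 at 0 in every library. The highest epithelial and immune sums came mainly from VIL1 (highest 26.6 CPM) and CD68 (highest 73.8 CPM). Smooth muscle markers, some of which fibroblasts in culture also express, summed to 348 to 1078 CPM in unstimulated and 364 to 1109 CPM in TGF-β1-stimulated libraries. Those sums were mainly ACTG2, with a median of 431 CPM over all libraries. Medians were 0 CPM for DES, 1.37 CPM for MYH11 and 6.56 CPM for SMTN. The part of these markers in the results was not tested.

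The promoters of the genes that changed are shown first, since SMAD3 and SMAD4 bind the short SMAD box, CAGAC, read on either strand (GTCTG on the other). All 10 genes matched the RefSeq promoter table (GRCh38.p14), which holds the 250 bases before and 50 bases after each start. A SMAD box was found in 8 of 10, against 45.3% of all 35116 promoters of that length. The 4 genes called with TGF-β1 and TGFB3, which changed with several other cytokines, are printed 5′ to 3′ on the gene's strand, with SMAD boxes in capitals. LTBP1 lies at chr2:32946703-32947002 on the plus strand, LTBP2 at chr14:74612188-74612487 on the minus strand, SMAD3 at chr15:67065352-67065651 on the plus strand, PMEPA1 at chr20:57711423-57711722 on the minus strand and TGFB3 at chr14:75982962-75983261 on the minus strand.
LTBP1: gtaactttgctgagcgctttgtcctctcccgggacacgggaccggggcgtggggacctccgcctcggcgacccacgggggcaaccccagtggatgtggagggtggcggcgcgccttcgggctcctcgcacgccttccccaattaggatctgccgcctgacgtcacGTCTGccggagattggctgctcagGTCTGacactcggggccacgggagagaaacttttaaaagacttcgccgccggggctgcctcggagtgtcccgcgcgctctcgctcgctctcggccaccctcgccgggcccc
LTBP2: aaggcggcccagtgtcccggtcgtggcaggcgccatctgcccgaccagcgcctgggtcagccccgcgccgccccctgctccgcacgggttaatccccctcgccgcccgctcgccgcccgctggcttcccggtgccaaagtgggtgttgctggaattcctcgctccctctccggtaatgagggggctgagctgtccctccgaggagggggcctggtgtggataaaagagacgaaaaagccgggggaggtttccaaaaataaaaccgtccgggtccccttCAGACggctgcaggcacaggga
SMAD3: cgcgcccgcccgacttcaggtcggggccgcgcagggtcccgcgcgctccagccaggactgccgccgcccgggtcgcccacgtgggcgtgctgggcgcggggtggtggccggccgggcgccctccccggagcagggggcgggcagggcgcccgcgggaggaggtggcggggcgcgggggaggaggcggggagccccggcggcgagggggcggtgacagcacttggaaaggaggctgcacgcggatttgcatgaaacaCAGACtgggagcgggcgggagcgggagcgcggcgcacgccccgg
PMEPA1: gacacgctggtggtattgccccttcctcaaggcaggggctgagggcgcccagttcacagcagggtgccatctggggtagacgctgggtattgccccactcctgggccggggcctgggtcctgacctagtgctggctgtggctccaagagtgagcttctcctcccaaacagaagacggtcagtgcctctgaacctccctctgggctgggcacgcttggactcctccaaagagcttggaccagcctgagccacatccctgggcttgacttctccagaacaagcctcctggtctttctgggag
TGFB3: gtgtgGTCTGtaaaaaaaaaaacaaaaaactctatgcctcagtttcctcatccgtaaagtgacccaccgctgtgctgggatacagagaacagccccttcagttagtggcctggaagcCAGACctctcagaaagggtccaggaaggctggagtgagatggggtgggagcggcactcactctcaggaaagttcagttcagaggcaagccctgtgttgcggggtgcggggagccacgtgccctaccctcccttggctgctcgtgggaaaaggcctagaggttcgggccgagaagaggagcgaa
LTBP1 and TGFB3 had 2 boxes each and LTBP2 and SMAD3 1 each. The interferon-stimulated response element (in 3.57% of promoters) and the kappa B site (1.91%), searched on both strands, had matches in 0 of the 10. No SMAD box lay in the PMEPA1 window, which says only that these letters are not in those 300 bases. A match is a stretch of letters and was not tested as a binding site.

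In unstimulated cells, levels were compared between genes only per kilobase of the reference transcript. SKIL, a nuclear repressor of SMAD complexes, stood far above the rest at 205 ± 52.2 CPM per kilobase (SD, n = 4), and its counts were the 89th highest of all symbols. LTBP1 followed at 32.3 ± 6.08 and BAMBI at 9.19 ± 4.79 CPM per kilobase. SMAD3 (4.23), LTBP2 (3.13), TGFB2 (2.13), PMEPA1 (1.44) and SMAD7 (1.12 CPM per kilobase) were lower, and TGFB3 was at 0 in all 4 libraries. With the median transcript length in place of the reference length, SMAD3 moved above BAMBI and SMAD7 above TGFB2 and PMEPA1, while SKIL and LTBP1 stayed first and second, at 860 and 261 CPM per kilobase.

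**Figure D1:**
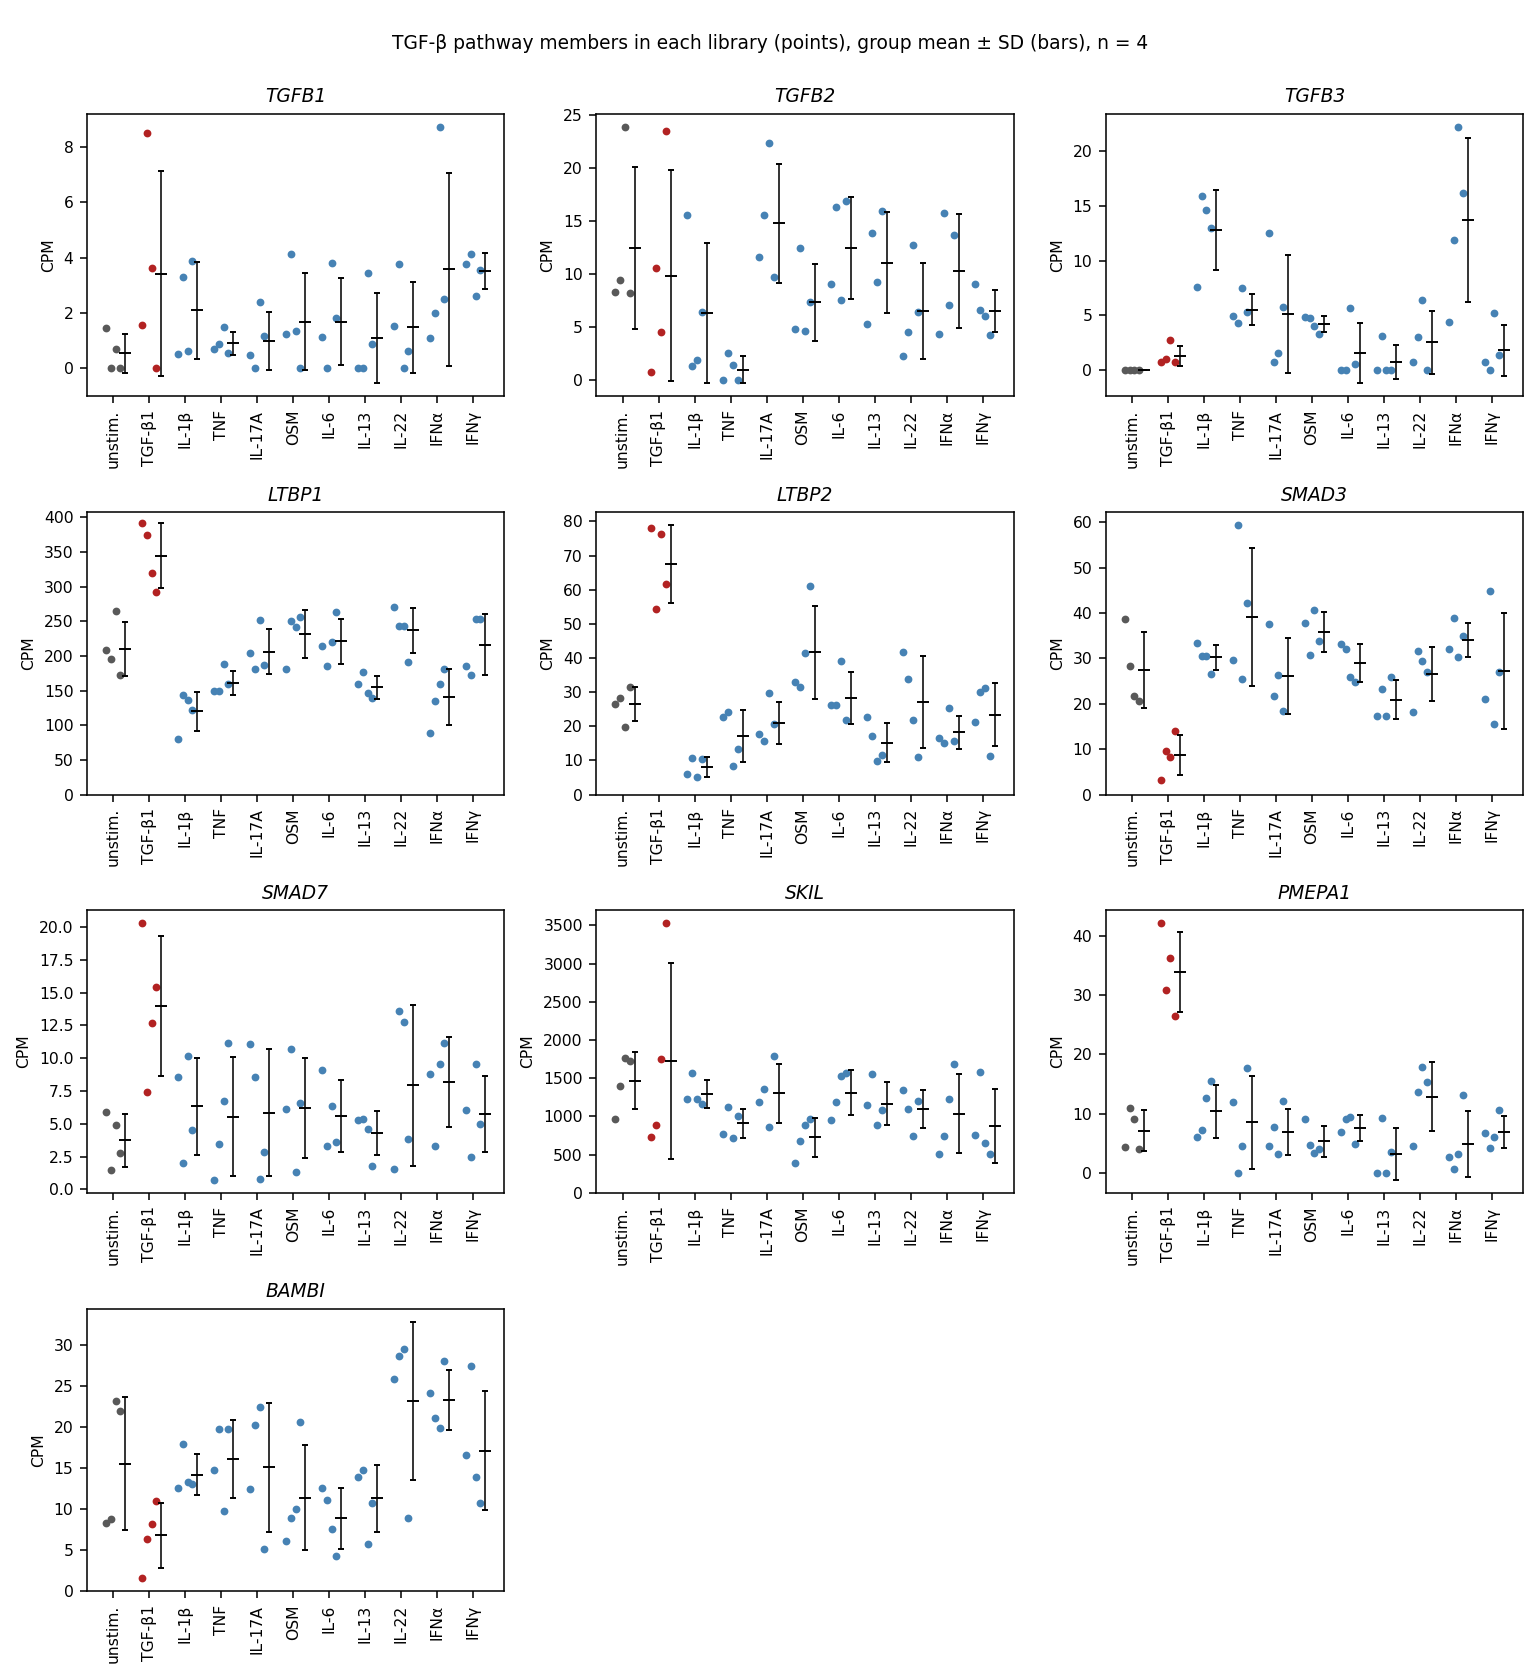
Level of each of the 10 genes in CPM (vertical axis, linear, 1 scale per gene) in the 11 groups. Points are the 4 libraries of a group, grey for unstimulated, red for TGF-β1-stimulated and blue for the other cytokines, and the bars beside them the mean ± SD. The red points of LTBP1 and PMEPA1 lie above, and those of SMAD3 below, every other library.

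TGF-β1 stimulation raised LTBP1, LTBP2 and PMEPA1 and lowered SMAD3, and no change in the RNA of the ligands passed the test. In edgeR's quasi-likelihood model, with p-values adjusted over 9513 genes by the Benjamini-Hochberg procedure, 4 of 9 members were called at an adjusted p under 0.05, against 5.69% of all genes tested. PMEPA1 and SMAD3, 2 of 9, also changed by more than 1.5 on the log2 scale, as did 1.7% of all genes. The median absolute log2 fold change was 1.35 over the 9 members and 0.4 over all genes. Without TGFB3, at or under 3 counts in every library of both groups, the member median was 1.26.

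LTBP1 encodes the protein that carries latent TGF-β to the matrix. It was at 208, 196, 265 and 172 CPM in unstimulated cells and at 392, 374, 320 and 292 CPM with TGF-β1. The groups did not overlap, and the log2 fold change was 0.71 (SE 0.18, adjusted p = 0.0131). The call did not hold without unstimulated replicate 4 (adjusted p = 0.0589) or TGF-β1 replicate 1 (0.0515), or when only the groups compared were fitted (0.0591).

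LTBP2, a microfibril-associated relative that does not bind latent TGF-β itself, was at 26.4, 28.4, 19.7 and 31.4 CPM in unstimulated cells. With TGF-β1 it was at 78, 54.2, 76.2 and 61.6 CPM. The log2 fold change was 1.35 (SE 0.34, adjusted p = 0.0113), and no single library decided the call.

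SMAD3 passes the receptor signal to the nucleus. It was at 38.7, 28.4, 21.8 and 20.5 CPM in unstimulated cells and fell to 3.12, 9.57, 8.17 and 13.9 CPM with TGF-β1. All 4 stimulated libraries lay below all 4 unstimulated ones, with a log2 fold change of -1.65 (SE 0.34, adjusted p = 0.00137). The adjusted p was at most 0.0186 with any 1 library left out and 0.0694 when only the 8 libraries compared were fitted.

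PMEPA1 encodes a membrane protein that sequesters receptor-activated SMADs. Unstimulated libraries held 4.41, 10.9, 9.15 and 4.1 CPM. TGF-β1-stimulated libraries held 42.1, 30.8, 36.3 and 26.4 CPM, a log2 fold change of 2.25 (SE 0.70, adjusted p = 0.0443). Its exons share 343 bases with NKILA on the opposite strand. The groups were well apart, but at these low levels the adjusted p was close to the threshold and exceeded it in 7 of 8 fits that left out a library (highest 0.129).

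The other feedback genes did not pass the test. SMAD7, which encodes the inhibitory SMAD, was at 5.88, 1.46, 4.93 and 2.73 CPM without and 20.3, 7.44, 12.7 and 15.4 CPM with TGF-β1. Its groups did not overlap either, and the log2 fold change was 1.86 (95% interval 0.47 to 3.24, adjusted p = 0.104). BAMBI, a decoy receptor, was at 8.32, 8.75, 23.2 and 21.9 CPM without and 1.56, 6.38, 8.17 and 11 CPM with TGF-β1, and the groups overlapped (log2 fold change -1.17, 95% interval -2.17 to -0.18, adjusted p = 0.17).

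SKIL was at 965, 1400, 1771 and 1731 CPM in unstimulated cells and at 735, 886, 1751 and 3538 CPM with TGF-β1. The stimulated libraries spread widely, lying both below and above the unstimulated ones. The log2 fold change was 0.24 (95% interval -0.47 to 0.94, adjusted p = 0.788), and it was -0.35 (adjusted p = 0.606) without TGF-β1 replicate 4. TGFB2, with 8.32, 9.48, 23.9 and 8.2 CPM without and 0.78, 10.6, 4.54 and 23.5 CPM with TGF-β1, also overlapped (log2 fold change -0.32, 95% interval -1.64 to 1, adjusted p = 0.859).

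The ligand's own transcript, TGFB1, was at or near the limit of measurement in most libraries. Its exons share 215 bases with HNRNPUL1 on the opposite strand. It reached 8.51 CPM in TGF-β1 replicate 2 and 8.74 CPM in IFNα replicate 3. It was at or under 3 counts in every unstimulated, TNF- and IL-17A-stimulated library. When every gene with any count was tested (23518 genes), TGFB1 was not called with any cytokine, and the lowest adjusted p was 0.374 with IFNγ.

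**Figure D2:**
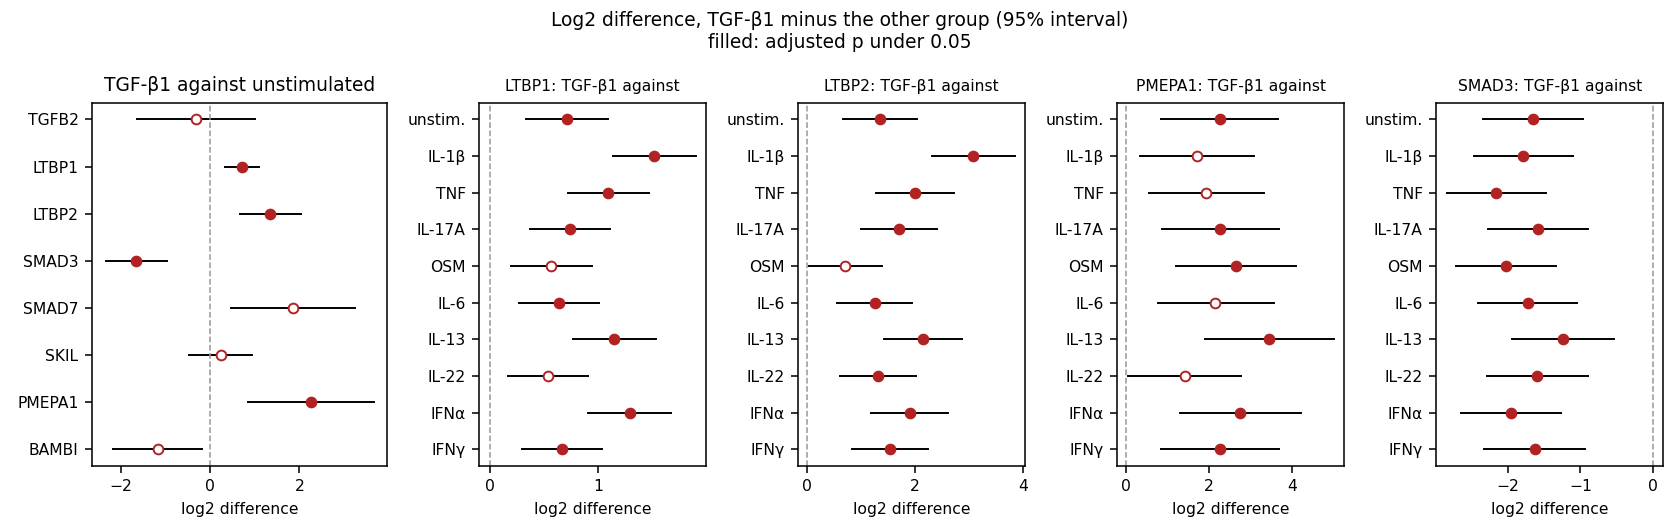
Log2 difference of TGF-β1-stimulated cells minus the group named on the vertical axis, for 8 members against unstimulated cells (left panel; TGFB3 is left out because both groups were at or under 3 counts in every library) and for LTBP1, LTBP2, PMEPA1 and SMAD3 against each other group. Lines are 95% intervals and filled points have an adjusted p under 0.05. SMAD3 was below 0 with a filled point in all 10 comparisons.

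The same 4 genes were then compared between TGF-β1 and each of the other 9 cytokines in the same model. These comparisons share the TGF-β1 libraries. SMAD3 was lower with TGF-β1 than in each of the other 10 groups, all 10 called, with the smallest difference against IL-13 (log2 difference -1.24, SE 0.35, adjusted p = 0.0121). The IL-13 call was lost without TGF-β1 replicate 1 (adjusted p = 0.084) and with every gene of any count (0.0564). With only the groups compared, SMAD3 was not called against IL-13 (0.108), IL-17A (0.07), IL-22 (0.0897) or IFNγ (0.0943). The highest TGF-β1-stimulated library (13.9 CPM) lay below the lowest of the other 40 (15.6 CPM, IFNγ). PMEPA1 was likewise apart from all other libraries, with its lowest TGF-β1 library at 26.4 CPM and the highest other at 17.9 CPM (IL-22). It was called against 6 of 10 groups, and the adjusted p was 0.0596 against IL-6, 0.0882 against TNF, 0.131 against IL-1β and 0.275 against IL-22. Without 1 library its calls against IL-17A and IFNγ were lost in 6 of 8 fits each and that against OSM in 1 of 8.

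LTBP1 was highest with TGF-β1, at 292 CPM or more against at most 270 CPM in any other library, and was called against 8 of 10 groups. The exceptions were OSM (log2 difference 0.57, adjusted p = 0.0502) and IL-22 (0.54, adjusted p = 0.0911). The call against IL-6 was lost in 5 of 8 fits without 1 library and that against IFNγ in 3 of 8, and the latter was also lost with only the groups compared (0.0968). LTBP2 was called against 9 of 10 groups, but the IL-6 call was lost in 5 of 8 such fits (highest adjusted p 0.0781) and the IL-22 call in 4 of 8 (highest 0.0987) and with only the groups compared (0.0504). Against OSM, whose libraries were at 32.9, 31.4, 41.4 and 61 CPM, the log2 difference was 0.70 (adjusted p = 0.262) and the groups overlapped. SMAD7 was highest with TGF-β1 by mean (14 ± 5.35 CPM, SD, n = 4), but its log2 differences against the other cytokines, 0.77 for IFNα to 1.68 for IL-13, did not pass the test (adjusted p = 0.551 and 0.106).

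BAMBI was lower with TGF-β1 than with IFNα (24.2, 21.1, 19.9 and 28 CPM; log2 difference -1.77, SE 0.49, adjusted p = 0.0104) and IL-22 (25.8, 28.6, 29.5 and 8.96 CPM; log2 difference -1.75, SE 0.50, adjusted p = 0.0308). The IL-22 call was lost in 6 of 8 fits without 1 library (highest adjusted p 0.143) and with only the groups compared (0.128), and the IFNα call without TGF-β1 replicate 1 (0.0642). SKIL was higher with TGF-β1 than with OSM (385, 683, 887 and 961 CPM; log2 difference 1.25, SE 0.36, adjusted p = 0.0201), which became 0.64 (adjusted p = 0.326) without TGF-β1 replicate 4. Of the 9 members, those called numbered 4 against IL-1β (background 7.83%), 4 against TNF (6.22%), 4 against IL-17A (6.08%), 3 against OSM (6.87%) and 3 against IL-6 (4.99%). They numbered 4 against IL-13 (12.4%), 3 against IL-22 (4.01%), 6 against IFNα (12.5%) and 4 against IFNγ (8.5%). The counts against IL-1β and IFNα include TGFB3, which passed the count filter only through groups where it was high.

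With the other cytokines the member called most often was the ligand TGFB3. TGFB3 was at 0 in all 4 unstimulated libraries, so its folds are lower bounds against 3 counts in each of them (mean 1.95 CPM). IL-1β gave 7.57, 15.9, 14.6 and 13 CPM, at least 6.53-fold higher (adjusted p = 0.000384). IFNα gave 4.41, 11.9, 22.2 and 16.2 CPM, at least 7-fold higher (adjusted p = 0.000208). Every library of both groups was above every unstimulated library. When only the 8 libraries compared were kept, TGFB3 fell under the count filter with every cytokine but IL-1β and was not tested. In the fit of all 44 libraries it passed that filter only through cytokine groups where it was high. Its calls and adjusted p-values, here and below, are therefore given as a description beside the levels, not as separate support.

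TNF gave 4.94, 4.31, 7.5 and 5.36 CPM of TGFB3, at least 2.83-fold higher (adjusted p = 0.0036). OSM gave 4.87, 4.74, 4 and 3.3 CPM, at least 2.16-fold higher (adjusted p = 0.0186), and the call was lost without unstimulated replicate 2 (0.0527) or 4 (0.0565). IL-17A gave 12.5, 0.78, 1.6 and 5.74 CPM, at least 2.64-fold higher (adjusted p = 0.0217). That value rested on IL-17A replicate 1: without it the bound was 1.39 and the adjusted p 0.0934, and the call was also lost without unstimulated replicate 1 (0.0885), 2 (0.0823) or 4 (0.0523).

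With IL-6 (0, 0, 5.7 and 0.604 CPM), IL-13 (0, 3.09, 0 and 0 CPM), IL-22 (0.76, 3.02, 6.41 and 0 CPM) and IFNγ (0.753, 0, 5.2 and 1.42 CPM), TGFB3 was not called (adjusted p = 1, 0.346, 0.211 and 0.0629). TGF-β1 itself gave 0.78, 1.06, 2.72 and 0.734 CPM, at or under 3 counts in every library. Compared directly, TGFB3 was lower with TGF-β1 than with IL-1β (edgeR adjusted p = 0.0388) and IFNα (0.0225). Summed counts were 6 with TGF-β1, 82 with IL-1β and 80 with IFNα, so that IL-1β was 9.7 times (exact 95% interval 4.27 to 27.2) and IFNα 10.1 times (4.43 to 28.3, counting error only) as high. Without 1 library the IL-1β call was lost in 6 of 8 fits and the IFNα call in 4 of 8. Of exon sequence, 163 bases of TGFB3 lie opposite TGFB3-AS1, and the sources used here do not say whether counting used strand, so reads within those bases cannot be told apart.

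**Figure D3:**
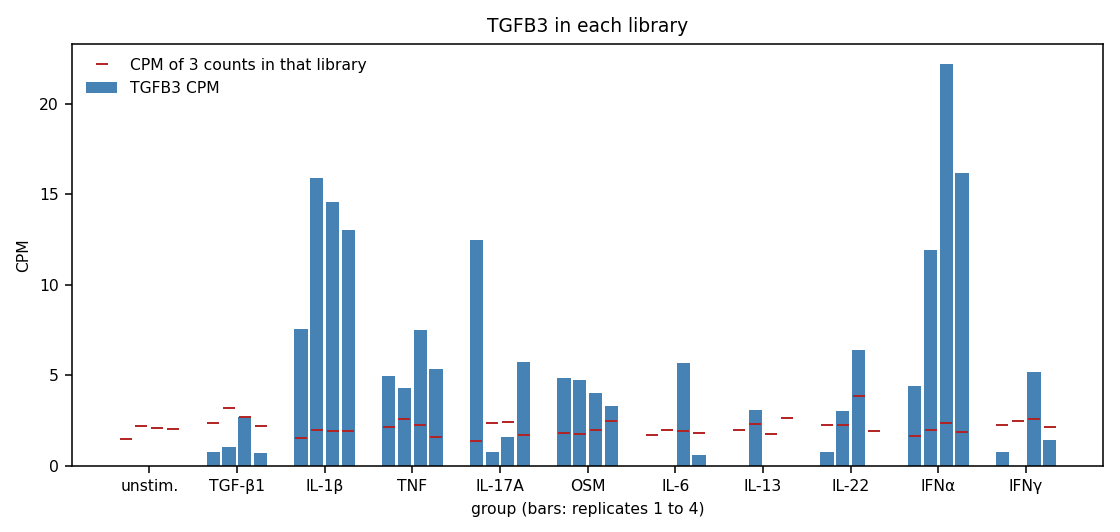
TGFB3 in each of the 44 libraries in CPM (bars, replicates 1 to 4 in each group), with the CPM that 3 counts give in that library (red marks). All 4 libraries pass their mark with IL-1β, TNF, OSM and IFNα, none do in unstimulated cells, and with IL-17A replicate 1 is the highest.

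TGFB2 changed with TNF alone among the 10 cytokines. It was at 0, 2.58, 1.5 and 0 CPM, at or under 3 counts in every library, against 8.2 to 23.9 CPM in unstimulated cells. Summed counts were 5 with TNF and 76 in unstimulated cells, 13.9 times as high per normalized library size in unstimulated cells (exact 95% interval 5.72 to 44.2, counting error only), and edgeR called the difference (adjusted p = 0.00198). TNF was also below 8 of the other 9 cytokines, while against IL-1β (15.6, 1.33, 1.91 and 6.49 CPM) no difference passed the test. The calls were close to the threshold against IFNγ (adjusted p = 0.0421) and IL-22 (0.0491). Against TGF-β1 (0.0088) the groups overlapped, and the call was lost without TGF-β1 replicate 4 (0.123) or TNF replicate 4 (0.0506). TGFB2 shares 701 exon bases with the opposite-strand TGFB2-AS1 and 1371 with TGFB2-OT1 on its own strand.

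IL-1β lowered LTBP1 and LTBP2. LTBP1 was at 79.7, 143, 136 and 122 CPM, below all unstimulated libraries (log2 fold change -0.81, SE 0.19, adjusted p = 0.00274). LTBP2 was at 6.05, 10.6, 5.08 and 10.4 CPM, also without overlap (log2 fold change -1.72, SE 0.38, adjusted p = 0.00145). Both calls held with each library left out. IFNα gave LTBP1 levels of 88.2, 135, 160 and 181 CPM (log2 fold change -0.58, SE 0.19, adjusted p = 0.0373), overlapping the unstimulated libraries, and this call was lost in 5 of 8 fits without 1 library (highest adjusted p 0.236).

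With TNF, LTBP1 was at 150 to 188 CPM (log2 fold change -0.38, adjusted p = 0.203) and with IL-13 at 139 to 177 CPM (-0.44, adjusted p = 0.213). Across the 11 group means, LTBP1 and LTBP2 had a Pearson correlation of 0.931 on the log2 CPM scale, given as a description, since the 2 share all libraries.

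For the cytokines other than TGF-β1, edgeR called no change in SMAD3, SMAD7, SKIL, PMEPA1 or BAMBI. Of these genes, only SMAD3 and PMEPA1 were called with TGF-β1. SKIL came nearest, with OSM at 385, 683, 887 and 961 CPM against 965 to 1771 CPM in unstimulated cells. These groups did not overlap (log2 fold change -1.01, 95% interval -1.72 to -0.30, adjusted p = 0.107).

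Members called against unstimulated cells were therefore 3 of 9 with IL-1β (background 7.38%), 2 with TNF (11.5%), 1 with IL-17A (1.52%), 1 with OSM (3.96%) and 2 with IFNα (9.85%). TGFB3, which passed the count filter only through groups where it was high, is counted in each of these. All 10 comparisons share the unstimulated libraries. With IL-6 (0.0105%), IL-13 (3.93%), IL-22 (0%) and IFNγ (10.6%), edgeR called 0 members, as did DESeq2's Wald test. In these comparisons 1, 2, 1 and 2 of the 9 members had an unadjusted edgeR p under 0.05. Of all 9513 genes tested, 233, 1486, 1037 and 2216 did. The members so counted with IL-6, IL-22 and IFNγ include TGFB3. With IFNγ 1013 genes were called in all and with TNF 1090. With IL-22 edgeR called 0 genes of any kind, DESeq2 called 112, and 1037 had an unadjusted p under 0.05 in edgeR. The IL-22 count was 71 without unstimulated replicate 3 and 54 without IL-22 replicate 4.

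By group means, the order of levels rarely resolved neighbours. Of 90 pairs of adjacent groups over the 9 members, 1 passed the test, SMAD3 with IL-13 (20.9 ± 4.27 CPM) above SMAD3 with TGF-β1 (8.7 ± 4.46 CPM), the call whose losses are given above. Over all 55 pairs of groups, 22 were called for LTBP1, 19 for LTBP2, 11 each for TGFB3 and SMAD3, 9 for TGFB2, 6 for PMEPA1, 2 for BAMBI and 1 for SKIL. The pairs share groups. All 9 for TGFB2 include TNF, and all 6 for PMEPA1 and 10 for SMAD3 include TGF-β1. Those for TGFB3 carry the limit of the count filter given above. How many pairs other genes were called in is not given here, so these counts are a description only. TGFB2 ran from TNF (1.02 ± 1.26 CPM) to IL-17A (14.8 ± 5.61 CPM), LTBP1 from IL-1β (120 ± 28.4 CPM) to TGF-β1 (345 ± 46.6 CPM) and LTBP2 from IL-1β (8.03 ± 2.87 CPM) to TGF-β1 (67.5 ± 11.5 CPM).

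The wider pathway was read from 4 lists, of which 35 genes were tested and 11 were too low. Among 14 tested TGF-β target genes, 7 rose and 0 fell with TGF-β1, against 5.69% of all genes called, with a list median log2 fold change of 0.81 beside -0.02 over all genes tested. The genes that rose were the cytokine gene IL11 (log2 fold change 3.85, SE 0.48, adjusted p = 3.07e-07), ELN for elastin (2.69), NOX4 for a hydrogen peroxide-producing oxidase (2.47), CCN2 for connective tissue growth factor (2.02), the cell cycle inhibitor gene CDKN2B (1.77), FN1 for fibronectin (0.83) and TGFBI (0.75). The contractile genes ACTA2 and TAGLN and the collagens COL1A1 and COL5A1 were not called with TGF-β1.

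The receptor gene TGFBR1 rose with TGF-β1 (log2 fold change 0.69, SE 0.18, adjusted p = 0.0131), 1 of 4 tested receptor genes, against the same 5.69% of all genes. Of 8 tested latency and activation genes, ITGB1, the shared integrin β chain, rose (0.43, adjusted p = 0.0233) and FBN1, the fibrillin that anchors latent complexes, fell (-0.62, adjusted p = 0.0114). Of 9 tested intracellular regulators, the ubiquitin ligase genes SMURF2 (-0.88, adjusted p = 0.0194) and NEDD4L (-2.35, adjusted p = 0.0487) were called lower. For both genes the groups overlapped. NEDD4L was at 1.18 ± 1.73 CPM with TGF-β1, where 3 counts give a mean of 2.61 CPM, and at 6.69 ± 2.13 CPM in unstimulated cells. SMAD6 and SKI were too low to test.

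Among the other cytokines, IL-1β and TNF changed most target genes, mainly downwards. With IL-1β 7 fell and 2 rose, and with TNF 6 fell and 3 rose, against 7.38% and 11.5% of all genes called in either direction. The list medians were -1.1 with IL-1β and -0.67 with TNF, beside -0.01 and -0.02 over all genes tested. Log2 fold changes with IL-1β and TNF were -2.19 and -1.6 for ACTA2 (smooth muscle actin), -1.32 and -1.61 for COL1A1 (collagen), -1.28 and -1.41 for TGFBI, -1.1 and -1.46 for LOX (a collagen cross-linking oxidase) and -1.09 and -1.3 for FN1. IL11 was higher in both comparisons (3.61 and 4.18). IL-17A lowered 3 (FN1, ACTA2 and TAGLN) and raised 1 (JUNB), against 1.52% of all genes called. JUNB was at or under 3 counts in every unstimulated library, and its groups overlapped (7.85 ± 7.76 CPM with IL-17A, 0.293 ± 0.348 CPM unstimulated). IL-13 lowered 3 (TSC22D1, NOX4 and IL11) and raised LOX (1.32, adjusted p = 0.00164), against 3.93%. IFNγ lowered TGFBI and ACTA2 and raised IL11, against 10.6%. IFNα raised CCN2 (1.35), TSC22D1 (1.06) and IL11 (1.82), against 9.85%. OSM raised TGFBI (0.55), against 3.96%. With IL-6 and IL-22 no change in this list passed the test.

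TGFBR1 fell with TNF (log2 fold change -0.65, adjusted p = 0.0123) and IFNγ (-0.94, adjusted p = 0.000325), and TGFBR3, the coreceptor betaglycan, fell with IFNγ (-1.32, adjusted p = 0.0125). The integrin genes ITGAV (-1.3 and -1.06) and ITGB1 (-0.81 and -0.60) fell with IFNα and IFNγ, as did FBN1 (-0.90 and -1) and SMAD2 (-0.82 and -0.93). ITGB8, the β chain of an integrin that activates latent TGF-β, rose with IL-1β (1.66, adjusted p = 0.00159) and IL-13 (1.26, adjusted p = 0.0386). THBS1, for thrombospondin, fell with IL-1β (-2.13) and TNF (-0.89) and rose with OSM (1.31) and IL-13 (1.33). SMURF2 fell with IL-1β (-1.13), TNF (-1.02) and OSM (-1.22), and TGIF1 rose with IFNγ (0.91).

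**Figure D4:**
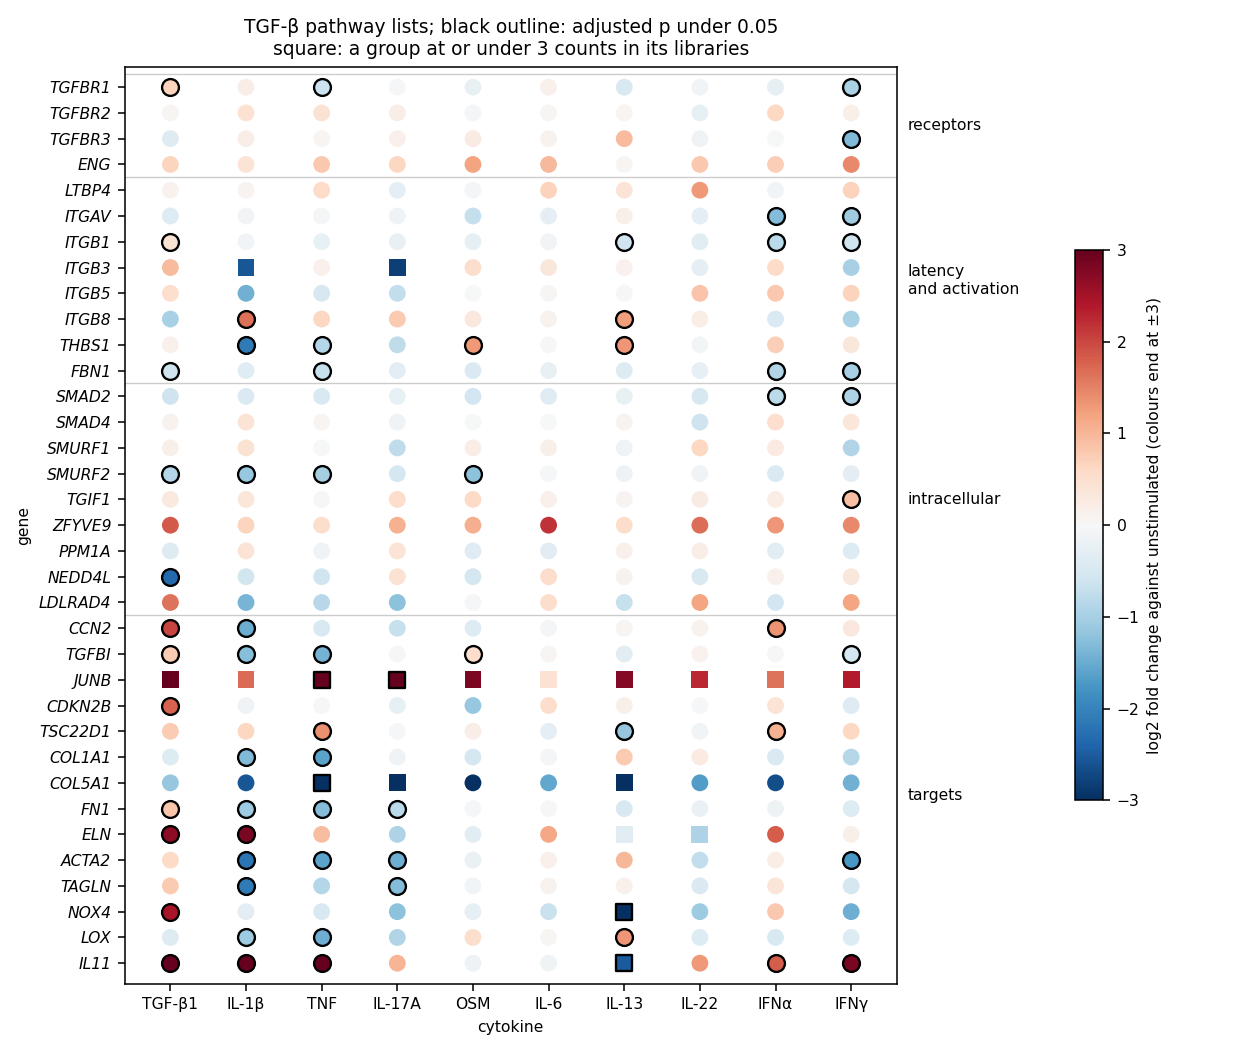
Log2 fold change against unstimulated cells of the 35 tested genes of 4 TGF-β pathway lists (rows) with each cytokine (columns), in colour, red for higher and blue for lower. A black outline marks an adjusted p under 0.05 and a square a group at or under 3 counts in every library, where the fitted fold depends on the prior count. TGF-β1 has 7 outlined red target genes, and IL-1β 7 outlined blue ones.

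The genes most like each member over the 11 group means of log2 CPM were picked from 5418 candidates. The highest Pearson correlation was 0.966 for SMAD7 with CHD4, 0.928 for SKIL with CHD9, 0.927 for LTBP2 with SPIN1 and 0.911 for TGFB2 with KCTD3. LTBP1 was most like CLU (0.909), BAMBI like DYRK4 (0.9), SMAD3 like NOG (0.894), TGFB3 like TMF1 (0.888) and PMEPA1 like DESI2 (0.878). NOG encodes noggin, an antagonist of BMPs. These are the highest of many correlations over 11 points and are given as a description.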

How the data were processed

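The authors deposited estimated counts per gene symbol, not scaled for depth, from kallisto (version 0.48.0), after quality checks of the reads in FastQC (0.11.9) and MultiQC (1.14). The build named in the submitters' processing notes is hg38. The transcriptome release and the use of strand are not given in the sources used here. Of the deposited values, 5.73% were not whole, and all were rounded.

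Genes passing filterByExpr entered a single edgeR quasi-likelihood fit (version 4.0.16, R version 4.3.3) of all 44 libraries with TMM scaling and a term for each group, which gives the groups a common estimate of spread (common biological coefficient of variation 0.331). Benjamini-Hochberg adjustment was made over the 9513 genes of each comparison, and genes were called at an adjusted p under 0.05. CPM are counts over the normalized library size. Counting limits cover counting error only, since reads are not independent molecules. Where a called group was at or under 3 counts in every library, the ratio of summed counts is given with an exact interval for 2 Poisson counts, chosen after the data were seen. The code was tested on simulated data.

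All 10 members are named whatever their values. From 4 pathway lists every tested gene is counted, except 1 target gene that is not reported here, and genes are named where called with TGF-β1 or among the 2 largest changes of a list with another cytokine. Other called list genes are also named, chosen after their values were seen. The 3 genes most like each member were found among non-members of mean log2 CPM of at least 4, and the first is named. Members and lists were chosen with earlier results of these data known. Alternatives were DESeq2 size factors, DESeq2's Wald test (version 1.42.0), every gene with any count, a minimum of 10 counts in 4 or more libraries, fits of the compared groups alone, a replicate block, fold thresholds and each library left out. The libraries were not treated as paired by replicate number, by a rule that does not exclude pairing. Gene lengths and overlaps come from GENCODE on GRCh38, and promoters from RefSeq.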

Additional observations from a re-analysis of the deposited data

Results flagged for a closer look

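Over 110 sets of 4 libraries (10 genes in 11 groups), 6 held a library far from the other 3 by Dixon's test, and chance gives about 1 in 20, or 5.5. TGFB2 in unstimulated replicate 3 was at 23.9 CPM, with the others at 8.2 to 9.48 CPM. TGFB3 was at 2.72 CPM in TGF-β1 replicate 3 (others 0.734 to 1.06 CPM), at 5.7 CPM in IL-6 replicate 3 (others 0 to 0.604 CPM) and at 3.09 CPM in IL-13 replicate 2 (others 0 CPM). LTBP2 was at 25.4 CPM in IFNα replicate 3 (others 15.1 to 16.5 CPM) and BAMBI at 17.9 CPM in IL-1β replicate 2 (others 12.6 to 13.3 CPM).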

How the results depend on the processing

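The member differences recomputed were those called in the main fit, plus SMAD7, BAMBI and SKIL with TGF-β1. New calls of other members were thus not counted here, and fits that dropped the gene or gave no adjusted p were skipped. Of 706 such differences recomputed under an alternative, 618 kept their direction and side of the threshold and 87 were no longer called. The remaining 1 reversed, SKIL with TGF-β1 (log2 fold change 0.24, and -0.35 to 0.5 without 1 library, the lowest without TGF-β1 replicate 4). The cause was not tested.

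With only the groups compared, the members called fell to 2 with TGF-β1, 1 with TNF, 0 with IL-17A and 0 with IFNα, and to 0 for TGF-β1 against IL-22 and 2 against IFNγ (8 libraries estimate the spread). With every gene of any count, 2 were called with OSM, 1 with IFNα and 2 with IFNγ. DESeq2's Wald test called 0 with IL-17A and 0 with OSM, where it gave no adjusted p for TGFB3. An absolute log2 fold change above 1.5 left 2 with TGF-β1 and 1 with IFNα, and above 1 left 1 with IFNα.

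Without 1 library, members called were 2 to 4 with TGF-β1, 3 to 3 with IL-1β, 2 to 2 with TNF, 0 to 1 with IL-17A, 0 to 1 with OSM, 1 to 2 with IFNα, 0 to 2 with IFNγ and 0 to 0 with IL-6, IL-13 and IL-22. For TGF-β1 against another cytokine they were 3 to 4 for IL-1β, 3 to 5 for TNF, 3 to 4 for IL-17A, 2 to 3 for OSM, 1 to 3 for IL-6, 3 to 4 for IL-13, 1 to 4 for IL-22, 4 to 6 for IFNα and 2 to 4 for IFNγ. Beyond the libraries named with each gene, leaving out IFNγ replicate 2 gave the 2 calls with IFNγ. The lowest counts came without TGF-β1 replicate 1, IL-6 replicate 1 or 2 (against IL-6), without TGF-β1 replicate 1 or 3 or IL-22 replicate 3 (against IL-22) and without IFNγ replicate 1 (against IFNγ).

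All genes called with TGF-β1 were 541, and 233 with only the groups compared, 313 without unstimulated replicate 2, 360 without TGF-β1 replicate 1 and 846 without TGF-β1 replicate 4. With only the groups compared the counts (main count in brackets) were 451 (1013) with IFNγ, 0 (1) with IL-6 and, for TGF-β1 against a cytokine, 349 (592) for TNF, 382 (578) for IL-17A, 287 (475) for IL-6, 215 (381) for IL-22 and 399 (809) for IFNγ. Without 1 library they were, with IL-17A (145), 77 and 62 without unstimulated replicates 1 and 2, 225 without 3, and 73, 77 and 91 without IL-17A replicates 2, 3 and 4. With OSM (377) they were 247 and 234 without unstimulated replicates 2 and 4 and 220 and 251 without OSM replicates 1 and 2, with IL-13 (374) 232 without unstimulated replicate 4, and with IFNγ (1013) 670 without IFNγ replicate 4. For TGF-β1 against IL-17A they were 360, 355 and 923 without TGF-β1 replicates 1, 2 and 4, against IL-6 310 without TGF-β1 replicate 3 and 288 without IL-6 replicate 2, and against IL-22 246 without TGF-β1 replicate 1 and 228 without IL-22 replicate 2. With any count, 220 were called with IL-17A (145 in the main analysis), 13 with IL-6 (1) and 29 with IL-22 (0). DESeq2 called 239 with IL-17A and 112 with IL-22.

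The libraries were not treated as paired by replicate number, since no cytokine had all 4 same-numbered correlations of deviations above 0.1. This rule does not exclude pairing, and the correlations ran from -0.087 (TNF replicate 3) to 0.281 (IL-6 replicate 1). With the replicate block, 4 members were called with TGF-β1, and all genes called were 223 with IL-17A and 12 with IL-22. No call changed in the 51 member differences compared, which were those called in the main fit plus SMAD7, BAMBI and SKIL with TGF-β1. At this depth, levels of a few CPM rest on few counts.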
